A study of Mus musculus with 28 samples.

Results

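Interleukin 10 and its receptor were followed as 2 genes, Il10 and Il10ra, of the 55 panel targets that had a value in every sample. Both were taken by name from the deposited count table. Il10 encodes interleukin 10 itself, and Il10ra encodes the chain of the receptor that binds the cytokine. The probe for Il10 covers positions 986 to 1085 of transcript NM_010548.1, and the probe for Il10ra covers positions 76 to 175 of NM_008348.2. Both are windows of 100 bases, and they read the transcript, so that no genome position enters the measurement.

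Interleukin 10 is a secreted cytokine that restrains inflammation. It binds a receptor made of a ligand-binding chain and a second chain that it shares with related cytokines, and the signal runs through JAK kinases and STAT3 to lower the output of inflammatory cytokines, chemokines and co-stimulatory molecules in macrophages and dendritic cells. In the gut, resident macrophages both make interleukin 10 and depend on its receptor to stay quiet towards the microbiota, and loss of either side of the pathway leads to colitis in mice. TREM-1, the product of Trem1, sits on neutrophils and monocytes and boosts the signals of pattern recognition receptors.

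The 28 samples are donor monocyte-derived cells or monocytes of C57BL/6 mice measured on a NanoString panel, which counts a coloured barcode for each target. Donors were wild type (WT) or Trem1-/-, and their monocytes were given to CCR2-/- recipients, whose own monocytes leave the bone marrow poorly. The small intestine (SI) of the recipients was either non-manipulated (control) or was inflamed by surgical manipulation on the previous day. Each intestinal sample is 100 cells of donor origin, sorted from the small intestine at day 1 after the monocytes were given. WT donors gave 5 control and 5 inflamed samples, and Trem1-/- donors gave 5 control and 7 inflamed samples. Primary bone marrow monocytes of non-manipulated mice gave 3 WT and 3 Trem1-/- samples, which had not been transferred. For these the sources used here give no cell number. All intestinal groups share the CCR2-/- recipient. The sources used here state neither the age nor the sex of the mice, nor whether each sample had its own donor mouse, so p-values measure the spread between these samples.

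Total counts per sample ran from 720570 to 1625959. The limit of background, the mean of 5 negative control probes plus 2 SD, lay between 16.7 and 59.0 counts. Both genes stood clear of it in every sample, Il10 with at least 23.4 times the limit and Il10ra with at least 12.3 times. Trem1 was blank in all Trem1-/- and bone marrow samples, so it gave no check of the donor genotypes. Of the marker lists, 5 of 7 monocyte, 4 of 6 macrophage and 4 of 6 dendritic cell genes were measured, and 0 of 5 neutrophil, 0 of 6 lymphocyte and 0 of 2 epithelial genes. The deposited columns were not made alike: 14 were plain counts and the other 14 were counts times 1.33 (8 samples), 1.333 (5) or 2 (1), and the multipliers were divided out. Levels below are normalised counts, for which each sample was scaled by Actb, Gapdh and Rpl19 as housekeeping genes (geometric mean). Because a sample is a pool of cells, fewer cells that make a transcript and less transcript per cell cannot be told apart.

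Il10 rose in the inflamed intestine in cells of both donor genotypes, and it rose further in Trem1-/- cells, from control levels that overlapped between the genotypes. In the WT control intestine the 5 samples held 4885, 2553, 3958, 5051 and 1493 normalised counts of Il10, a mean of 3588 ± 1535 (SD, n = 5). In the WT inflamed intestine they held 14545, 20171, 16734, 11179 and 12087, a mean of 14943 ± 3641 (n = 5). The lowest inflamed sample lay above the highest control, so that the groups did not overlap. The share of all targets without overlap is not given for this or the later comparisons between groups. A lack of overlap is therefore not shown to be particular to Il10. The log2 fold change was 2.06 (SE 0.30, 4.16-fold, edgeR adjusted p = 7.6e-06), and the call was kept under 27 of 27 alternatives. Of the 55 targets 26 passed in this comparison, or 47.3%, with 14 higher and 12 lower, and Il10 was the 9th by size of the rise. The split of all targets moved with the scaling, from 11 higher and 18 lower with TMM to 14 higher and 3 lower with positive controls.

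Cells of Trem1-/- donors started from 3189, 2721, 3323, 3953 and 2355 normalised counts of Il10 in the control intestine, a mean of 3108 ± 609 (SD, n = 5). In the inflamed intestine the lowest of 7 samples held 23278, the median 45437 and the highest 52988, with a mean of 43277 ± 9625. Every inflamed sample lay above every control, and the lowest of them, mouse 5, stood apart from the other 6. The log2 fold change was 3.80 (SE 0.31, 13.9-fold, edgeR adjusted p = 6.6e-10), kept under 29 of 29 alternatives, of which 12 leave out 1 sample. In this comparison 27 targets passed, or 49.1%, with 12 higher and 15 lower (10 and 19 with TMM, 15 and 4 with positive control probes, 18 and 2 with the authors' values), and Il10 was the 7th by size of the rise and the 3rd by p.

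The difference between these 2 responses is the interaction of genotype and inflammation. For Il10 it was 1.74 on the log2 scale (SE 0.39, edgeR adjusted p = 0.013), a response 3.34 times as large in Trem1-/- as in WT cells. With housekeeping scaling 2 of 55 targets, or 3.64%, passed this test, Il10 upwards and Cd80 downwards, and Il10 had the smallest p. The count rests on the scaling, with 3 higher under TMM, 6 higher and 1 lower under DESeq2, and 0 with the authors' values. More targets also passed in the samples without a multiplier alone, as given in the closing section. A two-sided exact permutation of genotype within each state of the intestine, which uses Il10 alone, gave 1.62 on the mean log2 scale (p = 0.00548 over 199584 arrangements). The call was kept under 35 of 38 alternatives, with values from 1.41 to 2.04. Of these 38, 22 leave out 1 sample, and all 22 kept the call. The call ended with the authors' normalised values (1.95, adjusted p = 0.193), in the samples without a multiplier alone (1.41, adjusted p = 0.0771) and in the multiplied samples alone (2.01, adjusted p = 0.185), all 3 in the same direction.

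Within the inflamed intestine, Trem1-/- cells held more Il10 than WT cells, and all 7 samples lay above every WT sample, with no share of all targets to set beside this. The log2 difference was 1.53 (SE 0.28, 2.90-fold, edgeR adjusted p = 0.000228). In this comparison 18 of 55 targets passed, or 32.7%, with 5 higher and 13 lower in Trem1-/- cells, and the median of all targets was -0.28. This split rests on the scaling, with 7 higher and 2 lower under TMM (median 0.27), 10 and 10 under DESeq2 (0.14), and 0 and 29 under positive controls (-1.21). With housekeeping scaling 2 targets had a larger positive difference than Il10. Scaling by the positive control probes instead of housekeeping genes gave 0.76 (adjusted p = 0.0752). The geometric means of these probes did not overlap between genotypes in intestinal samples, at no more than 729 counts for WT and no less than 766 for Trem1-/-, and this scaling moved the median of all targets by -0.93. Relative to the median of all targets, Il10 was higher by 1.81 with housekeeping genes and by 1.96 with positive controls.

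In the control intestine the genotypes differed by -0.21 for Il10 (SE 0.29, edgeR adjusted p = 0.741), and their samples overlapped. Here 2 of 55 targets passed, or 3.64%, both lower in Trem1-/- cells, and the median of all targets was -0.33. The sign of the Il10 difference depended on the scaling, at 0.34 after TMM, 0.050 after total count scaling and -1.29 after positive control scaling (adjusted p = 0.00695), where the median of all targets moved by a further -0.91.

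**Figure D1:**
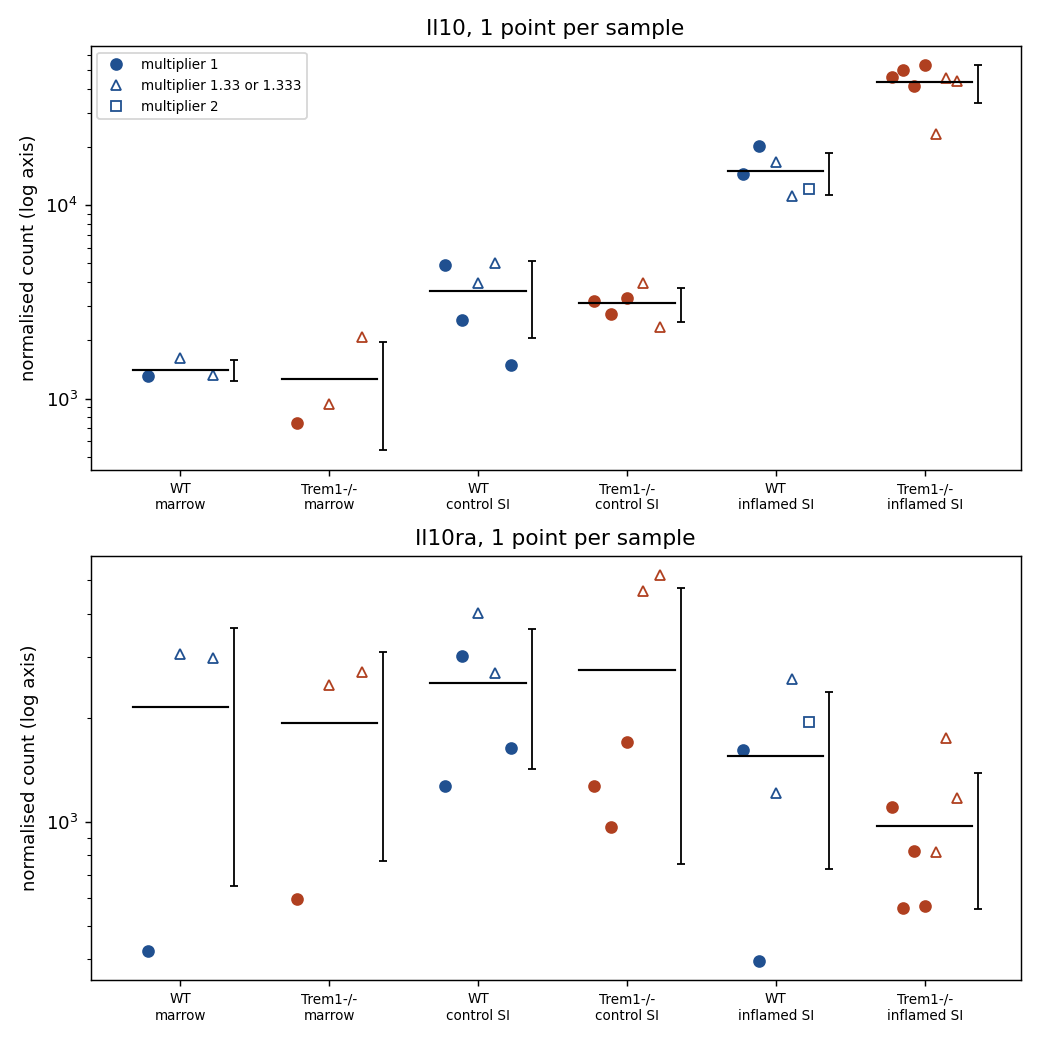
Normalised counts (log axis) of Il10, above, and Il10ra, below, with 1 point per sample in the 6 groups. Horizontal lines are group means, bars are ± SD, and SI is the small intestine. Point shapes mark the multiplier of the deposited column. The inflamed Il10 samples sit above all control and marrow samples, with Trem1-/- above WT, while the Il10ra groups overlap and open triangles lie mostly above filled circles.

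Bone marrow monocytes gave the lowest Il10. WT marrow samples held 1303, 1611 and 1320 normalised counts, a mean of 1412 ± 173 (SD, n = 3). Trem1-/- marrow samples held 751, 941 and 2075, a mean of 1256 ± 716 (n = 3), so that the genotypes overlapped. The difference was -0.17 on the log2 scale (SE 0.72, edgeR adjusted p = 0.951). None of 54 targets passed in marrow by edgeR, or 0%, although 3 had an unadjusted p under 0.05 and DESeq2 called 2.

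Against marrow, Il10 was higher in cells of the control intestine by 1.35 in WT (SE 0.37, edgeR adjusted p = 0.00621) and by 1.31 in Trem1-/- cells (SE 0.37, adjusted p = 0.00604). In each of these comparisons 19 of 55 targets passed, or 34.5%, of which 17 were higher in the intestine. The median of all targets was 0.61 in WT and 0.51 in Trem1-/- cells, and relative to it Il10 was higher by 0.74 and 0.80. With DESeq2 the calls split into 13 higher and 13 lower in WT and 15 and 14 in Trem1-/- cells, and with the authors' values into 6 and 2 in WT and 6 and 22 in Trem1-/- cells. Neither call was firm: the first was kept under 19 of 25 alternatives and the second under 17 of 25, and DESeq2 gave 0.40 (adjusted p = 0.435) and 0.78 (adjusted p = 0.0849). The Trem1-/- call also ended without marrow mouse 1 (1.04, adjusted p = 0.0533) and its direction turned with the authors' normalised values (-0.20, adjusted p = 0.775). Transfer, tissue and preparation all differ between marrow and intestine and cannot be told apart.

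Cells of the inflamed intestine stood much further from marrow. The log2 difference of Il10 was 3.40 in WT (SE 0.41, edgeR adjusted p = 8.76e-08), where 27 targets passed, or 49.1%, and 5.11 in Trem1-/- cells (SE 0.45, adjusted p = 2.89e-10), where 32 passed, or 58.2%. No sample overlapped in either, and the calls were kept under 25 of 25 and 27 of 27 alternatives. The median of all targets was 0.94 in WT and 0.31 in Trem1-/- cells, and relative to it Il10 was higher by 2.46 and 4.80. Both intestinal comparisons of a genotype use the same marrow samples.

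Ordered by mean, Il10 therefore ran from inflamed Trem1-/- cells through inflamed WT, control WT, control Trem1-/- and WT marrow to Trem1-/- marrow. Of the 5 neighbouring pairs, 3 differed by a two-sided exact permutation test adjusted over the pairs: inflamed Trem1-/- over inflamed WT (p = 0.00631), inflamed WT over control WT (p = 0.0198) and control Trem1-/- over WT marrow (p = 0.0298). The control genotypes (adjusted p = 0.825) and the marrow genotypes (adjusted p = 0.625) did not differ beyond their spread, and 3 against 3 samples cannot go below an exact permutation p of 0.1. Both inflamed groups kept the first and second place with total count and positive control scaling, while the places of 4 and 2 groups further down changed.

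Il10ra behaved differently. It was lower in the inflamed than in the control intestine of Trem1-/- donors, its decline in WT cells did not pass, and it varied widely within groups. In the WT control intestine the samples held 1268, 3012, 4010, 2692 and 1632 normalised counts of Il10ra, a mean of 2523 ± 1101 (SD, n = 5). In the WT inflamed intestine they held 1613, 396, 1215, 2597 and 1945, a mean of 1553 ± 821 (n = 5). The groups overlapped, with 2 of 5 inflamed samples under every control. The log2 difference was -0.70 (SE 0.52, edgeR adjusted p = 0.285) and passed under 1 of 27 alternatives, TMM scaling (-1.08, adjusted p = 0.0438).

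Cells of Trem1-/- donors held 1269, 966, 1698, 4672 and 5167 normalised counts of Il10ra in the control intestine, a mean of 2754 ± 2001 (SD, n = 5). In the inflamed intestine the lowest of 7 samples held 562, the median 825 and the highest 1742, with a mean of 971 ± 413. The inflamed samples lay low, and 4 of 7 were under every control. The log2 fold change was -1.50 (SE 0.48, 2.84-fold lower, edgeR adjusted p = 0.0149) in the comparison whose 49.1% and split of calls are given above. The call ended with positive control scaling (-1.16, adjusted p = 0.178), with the authors' normalised values (-0.39, adjusted p = 0.622), in the samples without a multiplier alone (-0.78, adjusted p = 0.237) and without control mouse 5 (-1.15, adjusted p = 0.067).

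The response of Il10ra was not shown to differ between genotypes. Its interaction was -0.80 (SE 0.71, edgeR adjusted p = 0.571), the exact permutation gave -0.46 (p = 0.537), and in the samples without a multiplier the sign turned (0.20). Trem1-/- and WT cells differed by -0.68 in the inflamed intestine (SE 0.48, adjusted p = 0.305) and by 0.13 in the control intestine (SE 0.52, adjusted p = 0.892). The inflamed difference passed with positive control scaling (-1.56, adjusted p = 0.0449), with the shift of all targets given above. The standard errors of Il10ra exceeded those of Il10 in each of these 3 comparisons, and a p that misses the threshold does not show that the genotypes are alike.

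In marrow, Il10ra counts were 422, 3051 and 2980 in WT samples, a mean of 2151 ± 1498 (SD, n = 3), and 596, 2481 and 2721 in Trem1-/- samples, a mean of 1933 ± 1164 (n = 3). One sample of each genotype lay far under the other 2. The genotypes differed by -0.15 (SE 0.92, edgeR adjusted p = 0.951). Against marrow, Il10ra differed by 0.23 in WT and 0.51 in Trem1-/- cells of the control intestine (adjusted p = 0.824 and 0.600) and by -0.47 and -0.99 in those of the inflamed intestine (adjusted p = 0.564 and 0.156). The last of these passed with TMM, DESeq2 and total count scaling, at -1.69, -1.72 and -1.71. Relative to the median of all targets, Il10ra was at -0.38 in WT and 0 in Trem1-/- cells of the control intestine. In inflamed cells it was at -1.41 in WT and -1.30 in Trem1-/- cells. None of the 5 neighbouring pairs in the order of Il10ra means differed by the exact permutation test (all adjusted p = 1).

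Il10ra also differed within groups by the multiplier of the deposited column. With the group means kept in the fit, intestinal samples with a multiplier of 1.33 or 1.333 had Il10ra higher by 1.05 on the log2 scale than samples without one (SE 0.29, edgeR adjusted p = 0.0102, 21 samples). In this test 15 of 55 targets passed, or 27.3%. In marrow the difference was 2.47 (SE 0.46, adjusted p = 0.0115, 6 samples), where 10 of 54 targets passed, or 18.5%. In 3 groups the classes did not overlap for Il10ra, with means of 4919 against 1311 normalised counts in control Trem1-/- cells, 2601 against 596 in Trem1-/- marrow and 3016 against 422 in WT marrow. The same held for 74.5%, 81.8% and 63.6% of the 55 targets in these groups, and marrow sets 2 samples against 1. For Il10 the classes did not overlap in the 2 marrow groups. In the fit, Il10 differed between the classes by -0.02 in the intestine (adjusted p = 0.949) and by 0.57 in marrow (adjusted p = 0.560). The multipliers had been divided out before this test, so the differences are of the counts themselves. No source used here says what the classes stand for. In the intestine the multiplier 1.33 occurred only in Trem1-/- samples, and 1.333 and 2 only in WT samples. The class pools 1.33 with 1.333, so that a block by class does not adjust for this split. Among the multiplied intestinal samples, genotype and the value of the multiplier cannot be told apart. With the class as a block, the inflamed against control change of Il10ra in Trem1-/- cells was -1.32 (adjusted p = 0.00729) and the Il10 interaction 1.67 (adjusted p = 0.0407).

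The ratio of Il10 to Il10ra within a sample needs no scaling, since both counts come from the same sample. Counts of different probes are not on a common scale, so only changes of the ratio are compared. The log2 ratio was 0.49 ± 0.93 (SD, n = 5) in WT and 0.48 ± 1.13 (n = 5) in Trem1-/- cells of the control intestine. It was 3.47 ± 1.38 (n = 5) in WT and 5.54 ± 0.73 (n = 7) in Trem1-/- cells of the inflamed intestine. Inflammation raised it by 2.98 in WT cells and by 5.06 in Trem1-/- cells, with no overlap of samples (two-sided exact permutation, p = 0.0253 and 0.0126 adjusted over 10 comparisons).

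Trem1-/- cells exceeded WT cells in the inflamed intestine by 2.07 on this scale (exact permutation, adjusted p = 0.0253), although 1 WT sample reached 5.67 and the groups overlapped. The interaction of the ratio was 2.08 (exact permutation p = 0.0462, adjusted p = 0.0769) and did not pass. It was 0.85 in the samples without a multiplier and 3.10 in those with 1.33 or 1.333. In marrow the log2 ratio was -0.16 ± 1.55 (n = 3) in WT and -0.49 ± 0.87 (n = 3) in Trem1-/- samples.

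**Figure D2:**
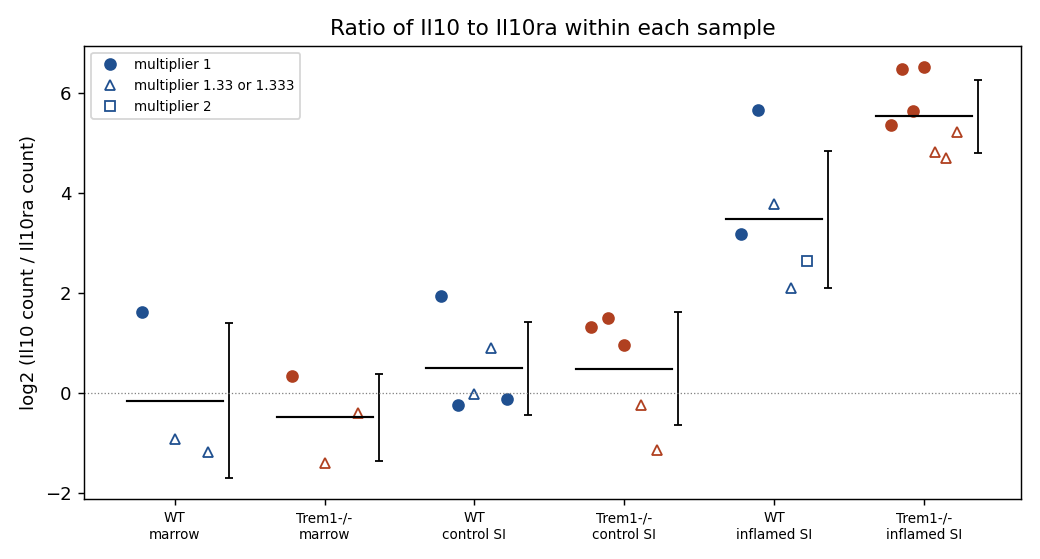
Log2 ratio of the Il10 count to the Il10ra count, with 1 point per sample in the 6 groups. Lines are means, bars are ± SD, SI is the small intestine, and point shapes mark the multiplier of the deposited column. Both inflamed groups lie above their controls, and the means are 3.47 for WT and 5.54 for Trem1-/- cells, with 1 WT sample at 5.67.

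The place of each gene among the 55 targets of its own sample, ranked by count from the highest, gives the same comparison without a scale factor. In WT cells the median place of Il10 went from 33 to 23, and in Trem1-/- cells from 30 to 11 (two-sided exact permutation, p = 0.0238 and 0.00842 adjusted over 20 comparisons). In the inflamed intestine the places of Il10 in the 2 genotypes did not overlap (exact permutation, adjusted p = 0.00842), while the interaction was -9.37 places (adjusted p = 0.0946). Il10ra moved down, in WT cells from 36 to 43 and in Trem1-/- cells from 36 to 45 (exact permutation, adjusted p = 0.0238 and 0.00842), without overlap of samples in either genotype. By place, the decline in WT cells thus passed where the level did not. The place of Il10ra in the inflamed intestine was lower in Trem1-/- than in WT cells, at 45 against 43 (exact permutation, adjusted p = 0.0357), and a place also moves with the other targets. Against marrow, the median place of Il10 was 33 in both WT control cells and WT marrow (exact permutation, adjusted p = 0.861). In Trem1-/- samples it was 30 and 32, with a mean difference of 0 places. Inflamed cells stood above marrow, at 23 in WT and 11 in Trem1-/- cells (exact permutation, adjusted p = 0.0357 and 0.0238). Il10ra in inflamed cells stood below marrow, at 43 against 31 and 45 against 30 (adjusted p = 0.0357 and 0.0238). In control cells it did not pass.

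Among the 7 inflamed Trem1-/- samples, no relation between Il10 and Il10ra was detectable: Pearson's r was -0.079 (exact permutation p = 0.859) and Spearman's rho -0.357 (exact permutation p = 0.444), both 0.859 when adjusted over the 2. Without the 2 samples farthest from the median of Il10, r was -0.38. No other group had 6 samples.

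Over all 28 samples, the targets whose log2 levels ran most like Il10 were Cxcl1, an attractant of neutrophils (r = 0.96), Ccl2, the main ligand of CCR2 (0.96), and Ccl7, another attractant of monocytes (0.94). These coefficients are descriptions over samples that share groups and scaling, with no test. Ccl2 stood at 3893 ± 1108 and 27115 ± 5077 normalised counts in the control and inflamed WT groups (SD, n = 5 each), and at 3971 ± 1945 (n = 5) and 51174 ± 8404 (n = 7) in the Trem1-/- groups. The target least like Il10 was Itgb7, an integrin chain of gut homing (-0.89), which went from 21008 ± 7595 to 9374 ± 5257 in WT and from 19928 ± 5853 to 3869 ± 696 in Trem1-/- cells.

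For Il10ra the most alike were Emr1 (r = 0.81), Csf1r (0.79) and Cx3cr1 (0.75). They encode F4/80, the M-CSF receptor and the fractalkine receptor in turn, and Emr1 is now named Adgre1. Emr1 and Cx3cr1 are on the macrophage list used here, and Csf1r is on the monocyte list. Both Emr1 and Cx3cr1 had their highest group means in marrow monocytes. These were 2510 (WT) and 3689 (Trem1-/-) normalised counts for Emr1, and 3779 and 4741 for Cx3cr1. Cx3cr1 stood at 1780 ± 1212 normalised counts in WT control and 137 ± 65.8 in WT inflamed samples (SD, n = 5 each), and at 2473 ± 2735 (n = 5) and 87.2 ± 30.3 (n = 7) in Trem1-/- samples. The least alike was Tnf (-0.51). Il10 and Il10ra themselves gave -0.39.

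Marker sums moved with the groups as well. The summed level of the 5 monocyte markers ran from 152773 to 179950 normalised counts in inflamed Trem1-/- samples, under the range of the other intestinal groups: 184543 to 240227 in Trem1-/- controls, 215908 to 297604 in WT inflamed and 247746 to 320551 in WT control samples. The 4 dendritic cell markers summed to 101213 to 165233 in WT and 64810 to 148002 in Trem1-/- controls, and to 5189 to 71355 and 11151 to 39020 in the inflamed groups. The sums of the 4 macrophage markers overlapped between all 4 intestinal groups, from 16479 to 59932. Such a sum is carried by its highest counts, and its members did not move together. From control to inflamed, Cx3cr1, Emr1, Fcgr1 and Mrc1 changed by -3.70, -0.57, -0.26 and 1.39 (log2) in WT cells. In Trem1-/- cells the changes were -4.82, -0.51, 0.33 and 2.81. The monocyte markers Ccr2, Csf1r, Spi1, Ly6c1 and Cd14 changed by -1.73, -1.10, -0.32, 0.81 and 1.00 in WT cells. In Trem1-/- cells they changed by -1.12, -1.23, -0.72, -1.78 and 0.62. The part of these shifts in the changes of Il10 and Il10ra was not tested.

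Other genes of the pathway were taken from lists. Of 7 partners of the receptor and its signalling (Il10rb, Jak1, Tyk2, Stat3, Socs3, Bcl3 and Nfil3), 0 had values to test and they are not analysed here. Of 26 genes that interleukin 10 is known to repress in macrophages, 12 were tested. In WT cells 8 of them rose in the inflamed intestine, 1 fell and 3 did not pass, where 26 of all 55 targets passed, or 47.3%. The median log2 change was 1.89 against -0.08 over all targets. In Trem1-/- cells 7 rose, 1 fell and 4 did not pass, where 27 of 55 targets passed, or 49.1%, with a median of 1.54 against 0.10. Cxcl1 and Ccl2, both on this list, rose by 3.90 and 2.80 in WT (SE 0.39 and 0.30, edgeR adjusted p = 5.42e-08 and 7.63e-08) and by 5.47 and 3.69 in Trem1-/- cells (SE 0.42 and 0.30, adjusted p = 6.1e-10 and 6.6e-10). Il1a, an alarmin cytokine, rose by 4.07 in WT cells (SE 0.43, adjusted p = 7.63e-08). The fall was that of H2-Ab1, part of an antigen-presenting molecule, by 2.08 in WT and 1.94 in Trem1-/- cells (SE 0.72 and 0.64, adjusted p = 0.0211 and 0.0179). Across the other 5 scalings, 8 members rose and 0 to 3 fell in WT, and 5 to 9 rose and 0 to 2 fell in Trem1-/- cells.

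Between genotypes in the inflamed intestine, 2 of the 12 were higher in Trem1-/- cells (Cxcl1 by 1.30 and Ccl2 by 0.92, edgeR adjusted p = 0.0046 and 0.00945), 1 was lower and 9 did not pass, with a median of 0.26 against -0.28 over all targets. Of all 55 targets 18 passed, or 32.7%, with 5 higher and 13 lower. With positive controls 0 of the 12 were higher and 4 lower (0 and 29 of all targets). With the authors' values 0 were higher and 1 lower (2 and 11 of all targets). The lower one with housekeeping scaling was Cd80, a co-stimulatory ligand of T cells, at 13700 ± 2926 normalised counts (SD, n = 7) in Trem1-/- and 40888 ± 15837 (n = 5) in WT cells (log2 difference -1.58, SE 0.26, edgeR adjusted p = 0.000101), and it was also called lower with each of the other 5 scalings. Control samples held 11712 ± 2280 in Trem1-/- and 12535 ± 5073 in WT cells (n = 5 each). With housekeeping scaling Cd80 was the only one of the 12 past the threshold in the interaction, at -1.48 (SE 0.38, adjusted p = 0.0213), a call that ended with TMM (-1.35, adjusted p = 0.069), positive controls (-1.24, adjusted p = 0.097) and the authors' values (-1.16, adjusted p = 0.268). Of the 12, the interaction called 2 higher with TMM, 3 higher and 1 lower with DESeq2, and 0 with positive controls or the authors' values. Of all 55 targets it called 3 higher with TMM, 6 higher and 1 lower with DESeq2, and 1 higher with positive controls. The median interaction of the list was 0.02 against -0.10 over all targets. In the control intestine 0 of 12 passed between genotypes, where 2 of 55 targets passed, or 3.64%. With DESeq2 1 of the 12 was higher, with positive controls 4 were lower and with the authors' values 1 was lower. Of all targets these scalings called 1 higher and 2 lower, 29 lower, and 12 lower in turn.

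**Figure D3:**
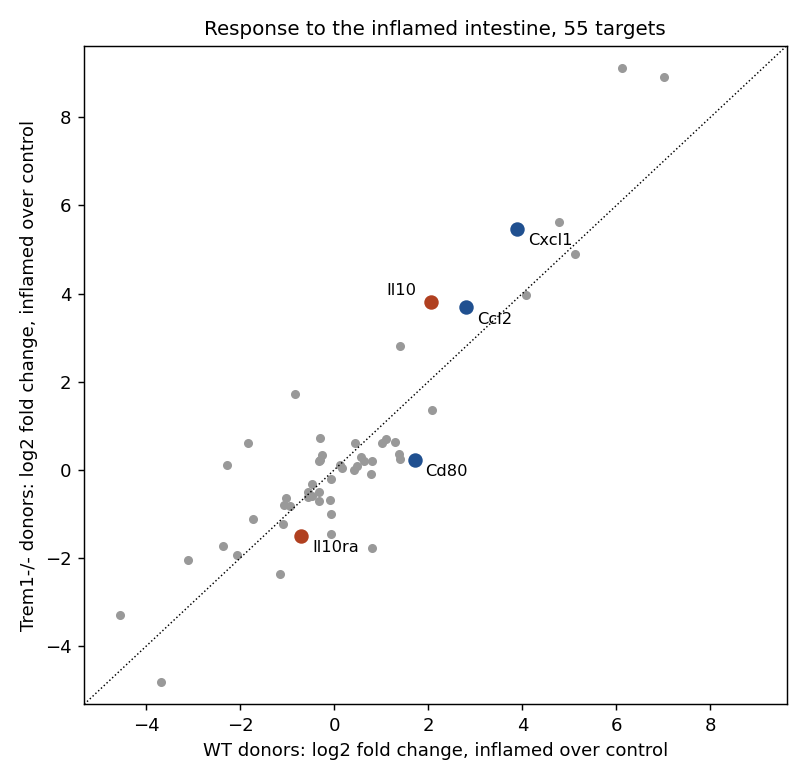
Log2 fold change of inflamed over control intestine in WT donors (x axis) and Trem1-/- donors (y axis), with 1 point for each of the 55 targets; the dotted line marks equal responses. Il10 (2.06 and 3.80) lies above the line with Cxcl1 and Ccl2, Cd80 lies under it, and Il10ra lies in the lower left.

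Of 17 sensing and signalling genes that act upstream of Il10 transcription, 8 were tested. In WT cells 3 rose with inflammation, 1 fell and 4 did not pass, a share of calls near the 47.3% of all targets, with a median of 0.62 against -0.08. In Trem1-/- cells 1 rose, 2 fell and 5 did not pass, under the 49.1% of all targets, with a median of 0.10 for both. With TMM 0 rose in either genotype, and with the authors' values 4 rose in each and 0 fell. Cd14, the co-receptor for lipopolysaccharide, rose by 1.00 in WT and 0.62 in Trem1-/- cells (SE 0.23 and 0.22, edgeR adjusted p = 0.00129 and 0.0225), and Card9, an adaptor of C-type lectin receptors, fell by 0.95 and 0.83 (adjusted p = 0.00186 and 0.00263). With TMM the Cd14 values were 0.57 and 0.19, neither past the threshold. With the authors' values those of Card9 were -0.40 and 0.08, also not past it. None of the 8 passed in the interaction, where 2 of 55 targets passed. In the inflamed intestine 5 of 8 were lower in Trem1-/- than in WT cells and 0 were higher, with a median of -1.08 against -0.28 over all targets, of which 13 of 55 were lower. The count rests on the scaling, at 0 of 8 lower with TMM (median -0.45 against 0.27), 3 with DESeq2, 4 with total counts or the authors' values and 7 with positive controls.

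Nfkb1, a subunit of the transcription factor NF-κB, stood at 14280 ± 4715 normalised counts (SD, n = 7) in Trem1-/- and 37298 ± 12394 (n = 5) in WT inflamed samples (log2 difference -1.39, SE 0.25, edgeR adjusted p = 0.000227). Nod2, a sensor of bacterial muramyl dipeptide, stood at 2492 ± 408 and 6502 ± 3458 (log2 difference -1.38, SE 0.33, adjusted p = 0.00277). Neither passed with TMM, at -0.78 (adjusted p = 0.105) and -0.69 (adjusted p = 0.082), and both were called lower with the other 4 alternatives of scaling. In the control intestine 0 of 8 passed between genotypes, where 2 of 55 targets passed, or 3.64%.

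Of 9 alternative activation genes, 6 were tested. In WT cells 1 rose with inflammation, 1 fell and 4 did not pass, under the 47.3% called of all targets, with a median of 0.93 against -0.08. In Trem1-/- cells 2 rose, 1 fell and 3 did not pass, near the 49.1% of all targets, with a median of 0.22 against 0.10. Arg1, which encodes arginase 1, went from 1243 ± 1950 to 86588 ± 110831 normalised counts in WT (SD, n = 5 each) and from 246 ± 114 (n = 5) to 137110 ± 11267 (n = 7) in Trem1-/- cells. Its log2 changes were 6.12 and 9.12 (SE 1.09 and 1.23, edgeR adjusted p = 7.35e-05 and 1.94e-06), and its interaction did not pass (3.00, SE 1.23, adjusted p = 0.187). Tgfb1, which encodes another restraining cytokine, fell by 0.56 and 0.61 (adjusted p = 0.00527 and 0.00133), and did not pass with positive controls (-0.23 and -0.03) or the authors' values (-0.01 and 0.27). In the inflamed intestine 1 of 6 was higher in Trem1-/- cells, against 5 of 55 targets. This was the mannose receptor gene Mrc1, by 2.61 (SE 0.70, edgeR adjusted p = 0.00493). With positive controls it did not pass (1.73, adjusted p = 0.0792).

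**Figure D4:**
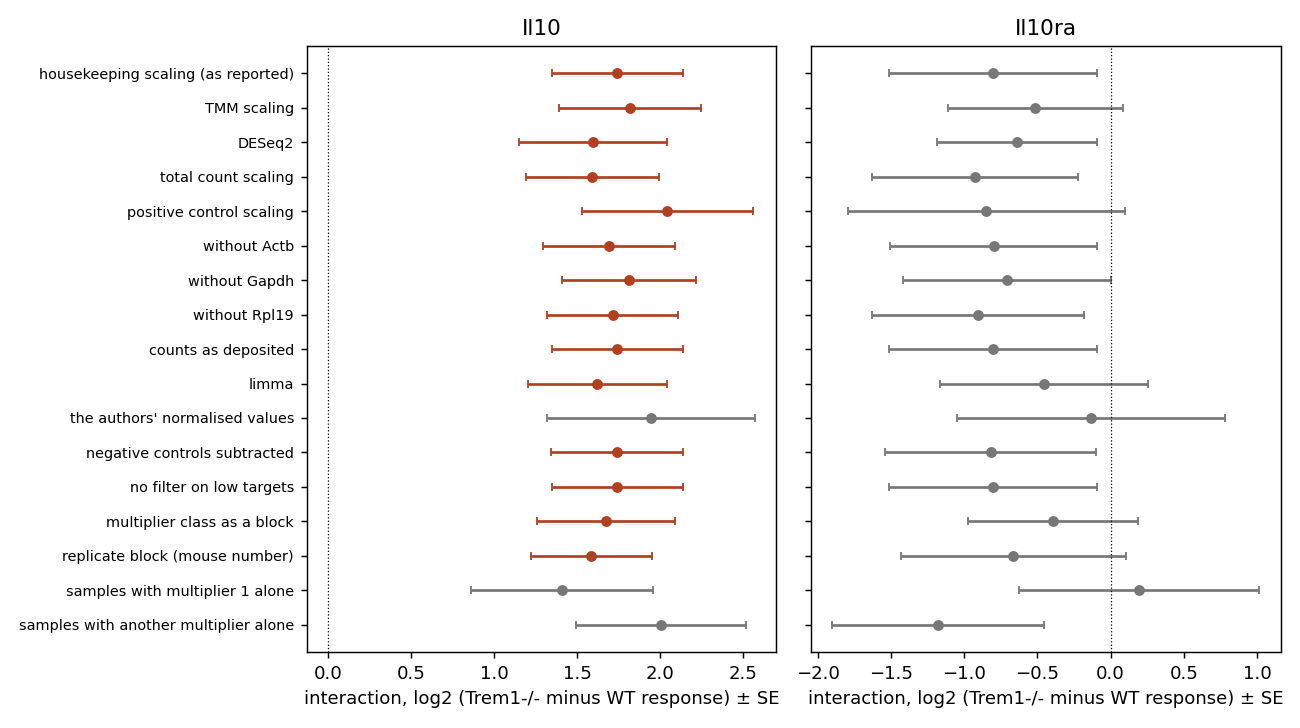
Interaction of genotype and inflammation (log2, Trem1-/- minus WT response) for Il10, left, and Il10ra, right, as reported in the top line and under 16 alternatives. Fits that leave out 1 sample are not shown. Bars are ± SE, and red marks an adjusted p under 0.05. All Il10 values lie between 1.41 and 2.04 and all but 3 are red, while no Il10ra value is red.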

How the data were processed

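Per the labels' protocols, cDNA of the sorted cells was amplified for the targets (multiplexed target enrichment) before it met barcoded probe pairs. The values are therefore barcode counts after amplification without molecular identifiers, and their precision covers counting error only. The authors deposited a raw table whose columns are counts in 15 samples, 1 of them with every count multiplied by 2. The other 13 deposited columns are expected counts, which here are whole numbers times 1.33 or 1.333. After division 100% of values were whole, with a tolerance of 0.0001. No source used here explains the multipliers, the counting software or the normalisation. The authors' deposited normalised table is a score, the raw column times 1 factor per sample, and served only as an alternative.

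The 72 named targets include 12 without a value in any sample. For the 55 tested, edgeR 4.0.16 in R 4.3.3 fitted the counts with its quasi-likelihood test (two-sided), with Actb, Gapdh and Rpl19 (geometric mean) in place of library size. A target was tested when above background in at least 3 samples of the fit (54 targets in marrow). Adjusted p-values are Benjamini-Hochberg over all targets tested, with a threshold of 0.05. The 22 intestinal samples, the 6 marrow samples and all 28 samples made 3 fits, for comparisons within intestine, within marrow and between them. Group levels, ratios and ranks were compared with exact permutation tests over every arrangement, and the permutation of 2 groups was checked against scipy 1.17.1. Levels entered as log2(normalised count + 1), ratios as log2 of Il10 over Il10ra counts without scaling, and ranks as places by count. Alternatives used limma 3.58.1 on log2 values, DESeq2 1.42.0, other scalings, blocks and subsets of samples.

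The members and lists were chosen with earlier results of these data known. Beside the members, the text names the 3 targets most and the 1 least like each of them over all samples, the list genes past the threshold in the interaction and, for each intestinal comparison, mainly the 2 of a list with the smallest adjusted p. No samples of a group were copies (chi-square per degree of freedom at least 264.9). The titles do not say that a shared mouse number marks a shared litter, batch or day, so the numbers were not taken to pair samples. Deviations of samples with the same mouse number correlated above 0.1 in 15 of 33 pairs, with values from -0.66 to 0.79. This count cannot decide on pairing, since no samples with different numbers are set beside it. The fits were tested on simulated data.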

Additional observations from a re-analysis of the deposited data

Results flagged for a closer look

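The Il10 level of inflamed Trem1-/- mouse 5, at 23278 normalised counts, stood apart from the other 6 samples of its group. On the log2 scale the gap was 0.704 of the group's range, against a critical value of 0.568. The same check was made on 12 sets of values (Il10, Il10ra and their ratio in 4 intestinal groups), of which chance marks about 1 in 20. Without this sample the Il10 interaction was 1.85 (edgeR adjusted p = 0.00426).

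The response of Il10 to inflammation differed between donor genotypes by 1.74 on the log2 scale (SE 0.39, edgeR adjusted p = 0.013), which is a test of the difference itself.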

How the results depend on the processing

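For Il10, the inflamed against control change kept its call under all 27 alternatives in WT (1.57 to 2.72) and all 29 in Trem1-/- cells (3.42 to 4.66), as did inflamed intestine against marrow (25 and 27 alternatives). Alternatives and leave-one-out fits below are log2 values, and the cause of each change was not tested.

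With positive control scaling, Il10 between genotypes was 0.76 in the inflamed intestine (no longer past the threshold) and -1.29 in the control intestine (past it). Il10ra was -1.56 between genotypes in the inflamed (past it) and -0.71 in the control intestine (sign turned), and -1.16 for inflamed against control Trem1-/- cells (no longer past). Against marrow the same scaling gave Il10 1.09 (WT) and 0.32 (Trem1-/-) in control cells, both no longer past, and Il10ra -0.28 in Trem1-/- control and 0.013 in WT inflamed cells, both with the sign turned. With the authors' normalised values the Il10 interaction was 1.95 and Il10ra in Trem1-/- cells -0.39, neither past the threshold. Signs turned with them for Il10ra between control genotypes (-0.75), for both genes between marrow genotypes (0.046 and 0.37) and for control cells against marrow (Il10 -0.20 and Il10ra -1.17 in Trem1-/-, Il10ra -0.049 in WT), while Il10 in WT was 0.60 and no longer past.

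In the samples with multiplier 1 alone, the Il10 interaction was 1.41, Il10ra in Trem1-/- cells -0.78 and Il10 in WT control cells against marrow 1.19, none past the threshold. Signs turned there for the Il10ra interaction (0.20), both genes between control genotypes (0.048 and -0.59) and Il10ra of inflamed cells against marrow (1.25 in WT, 0.36 in Trem1-/-). In the multiplied samples alone, the Il10 interaction was 2.01 and Il10 in Trem1-/- control cells against marrow 1.06, neither past, and Il10 between marrow genotypes turned to 0.041. With the multiplier class as a block, Il10ra turned between control genotypes (-0.075) and marrow genotypes (0.022).

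With TMM, DESeq2 and total count scaling in turn, Il10 between control genotypes turned to 0.34, 0.33 and 0.050, between marrow genotypes to 0.18, 0.075 and 0.12, and Il10ra between marrow genotypes to 0.25, 0.17 and 0.25. Il10 in control cells against marrow fell below the threshold in WT (0.65 with TMM, 0.40 with DESeq2) and in Trem1-/- cells (0.88, 0.78 and 0.93 in turn), as it did with only the groups compared (1.35 and 1.31). Il10ra in control cells against marrow turned to -0.27, -0.44 and -0.015 in WT, and to -0.18 (TMM) and -0.22 (DESeq2) in Trem1-/- cells. Il10ra in inflamed cells against marrow passed in Trem1-/- (-1.69, -1.72 and -1.71) and, with DESeq2, in WT cells (-1.34), and inflamed against control WT cells passed with TMM (-1.08). With limma, Il10ra turned between control genotypes (-0.084) and marrow genotypes (0.022).

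The mouse numbers were not shown to pair samples. With the mouse number as a replicate block, the Il10 interaction was 1.59 (adjusted p = 0.0309), and Il10ra turned between control genotypes (-0.15) and marrow genotypes (0.021), neither past the threshold. Leaving out 1 replicate at a time gave 1.59 to 1.94 for the Il10 interaction, all past the threshold. For Il10ra it gave -1.72 to -1.15 in inflamed against control Trem1-/- cells, -0.23 to 0.36 between control genotypes, -0.64 to 0.27 between marrow genotypes and -0.26 to 0.57 in WT control cells against marrow. For Il10 it gave -0.74 to 0.096 between marrow genotypes and 1.04 to 1.88 in Trem1-/- control cells against marrow.

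Counts of targets called moved by over 1.5 times as follows. The interaction, with 2 as reported, had 7 with DESeq2, 4 with the class block, 1 with positive controls or the replicate block, 16 with multiplier 1 alone, 0 with multiplied samples alone or the authors' values, and 1 to 4 with 1 sample left out. Between inflamed genotypes 18 became 9 with TMM (7 higher, 2 lower) and 29, all lower, with positive controls. Between control genotypes 2 became 0 with TMM or total counts, 29 with positive controls, 12 with the authors' values, 11 with multiplier 1 alone, 6 with the class block, 4 without Rpl19, 1 with the replicate block and 1 to 6 with 1 sample left out. In marrow 0 became 2 with DESeq2 or positive controls and 1 without Rpl19. Inflamed against control WT went from 26 to 17 with positive controls. WT control against marrow went from 19 to 8 to 12, and Trem1-/- control against marrow from 19 to 29 with DESeq2 and 12 with multiplier 1 alone.

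Marrow genotypes could not be compared with multiplier 1 alone, where 1 sample a group remains, and the interaction and marrow fits already hold only the groups compared. Every count of either gene lay above the background limit. Scalings of the list genes were added after seeing the data.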
